A study of Homo sapiens with 5 samples.

Results

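Argonaute proteins hold the small RNA in the silencing complex, and TNRC6 (GW182) proteins bind Argonaute through their glycine-tryptophan repeats and bring in the machinery that removes poly(A) tails. AGO2 is the human Argonaute known for efficient cleavage of fully paired targets, while AGO1, AGO3 and AGO4 act mainly by repression together with TNRC6. TNRC6A, TNRC6B and TNRC6C are scaffolds that contact the poly(A)-binding protein and the PAN2-PAN3 and CCR4-NOT deadenylases. The 7 transcripts AGO1, AGO2, AGO3, AGO4, TNRC6A, TNRC6B and TNRC6C were taken by their gene symbols from a table of 57773 gene identifiers, and each symbol matched 1 entry. The rule for choosing them uses names and no measured values, but the members were listed with earlier results of these data known.

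RNA came from 5 libraries of HCT116, a human colorectal carcinoma line, in a Dicer-knockout background that all groups share, the control included. Cells were transfected with methylated let-7a (labelled 19A), native let-7a, methylated miR-17 (labelled 13A), native miR-17 or a negative control, with 1 library each. Per the labels' protocols, total RNA was made into stranded libraries depleted of ribosomal RNA, and the deposited unit is TPM, a level scaled for gene length and for the library's total. The labels give no clone, dose, time after transfection or kind of methyl group. With 1 library a group there is no replicate check, no test and no SD, the sequencing depth is unknown, and less RNA of a gene per cell cannot be told apart from fewer cells that express it.

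Of the 11 colorectal epithelial markers looked up, 8 passed the expression filter, with EPCAM between 524.4 and 618.8 TPM and CDX2 between 8.8 and 13.6 TPM, but CDX1 and VIL1 were listed at 0 in every library. The 6 fibroblast markers summed to 11.8 to 17.2 TPM, mostly COL1A1, the 6 blood and immune markers to 6.0 to 8.4 TPM, and the endothelial markers found to 0.3 to 1.2 TPM, and PTPRC and DCN were listed at 0. Mitochondrially encoded genes took 9.36% to 12.6% of the TPM, and 14173 to 14396 genes reached 1 TPM in a library. DICER1 had 12.5, 11.2, 12.9 and 15.9 TPM with methylated let-7a, native let-7a, methylated miR-17 and native miR-17, against 15.4 TPM in the control, which does not check the knockout, since no library with intact Dicer was analysed here.

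The sequences of the transfected oligonucleotides are not in the labels, so the RefSeq mature microRNAs (GRCh38.p14) are shown with the seed, positions 2 to 8, in capitals. The let-7a locus on chromosome 9 lies at chr9:94175962-94175983 on the plus strand, and miR-17 at chr13:91350618-91350640 on the plus strand. Adenosine stands at position 19 of let-7a-5p and at position 13 of miR-17-5p.
hsa-let-7a-5p: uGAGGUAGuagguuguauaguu
hsa-miR-17-5p: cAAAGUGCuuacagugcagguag

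Seed matches were sought on the transcript strand of the 3′ untranslated region (3′ UTR), taking for each gene the longest one that GENCODE 29 lists. A 7mer-m8 match pairs with microRNA positions 2 to 8 (CTACCTC for let-7a, GCACTTT for miR-17), a 7mer-A1 match pairs with positions 2 to 7 and is followed by A (TACCTCA and CACTTTA), and an 8mer has both features. A match is a description of the letters and not a shown site of repression. The 4 Argonaute genes each held 2 or 3 let-7a matches and the 3 TNRC6 genes held 0, while 17.9% of the 12020 genes searched had at least 1. All 7 genes held at least 1 miR-17 match, against 31.5% of the genes searched. Long 3′ UTRs hold more matches by length alone, and 4 of the 7 were far longer than the rest: AGO3 with 16755 nt, TNRC6B with 12567 nt, AGO2 with 11888 nt and AGO1 with 10921 nt. AGO4 had 4285 nt, TNRC6C 3990 nt and TNRC6A 2420 nt, the last being longer than the 3′ UTR of 71.0% of genes.

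The let-7a matches of AGO4 and AGO1 are shown because these genes stood lowest of the 7 in both let-7a libraries against the control, and the 8mer of AGO3, 1 of its 3 matches, for comparison. Each window is from GENCODE 29 (GRCh38, plus strand), 5′ to 3′, with the match in capitals.
AGO4 at chr1:35853834-35853863, 7mer-A1: gactgaattttTACCTCAatgtgcaaaggc
AGO4 at chr1:35855665-35855694, 7mer-A1: ttttttgcaaaTACCTCActtggataatac
AGO1 at chr1:35919611-35919640, 7mer-A1: cagaacgctgtTACCTCActggatagaaga
AGO1 at chr1:35920681-35920710, 7mer-m8: ccttattcctcCTACCTCccgccccgccca
AGO3 at chr1:36069077-36069106, 8mer: cctgtcctcacCTACCTCActaaattgttg

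Both AGO1 let-7a matches lie in each of its 2 annotated 3′ UTRs, and the AGO3 8mer lies in 1 of 3. Of the miR-17 matches, those of AGO1 are shown as an example from a gene that was lower with methylated miR-17, and that of TNRC6B as the only 8mer. The first AGO1 match lies in both of its annotated 3′ UTRs and the other 2 in the longer one alone.
AGO1 at chr1:35920594-35920623, 7mer-m8: cattgacatttGCACTTTcaaacatgacaa
AGO1 at chr1:35923584-35923613, 7mer-m8: ggatatgcaggGCACTTTttactatttggc
AGO1 at chr1:35924018-35924047, 7mer-A1: actctggttttCACTTTAgtttctaaactt
TNRC6B at chr22:40335257-40335286, 8mer: acagaaactagGCACTTTAgaggtgcactt

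AGO2 was the most abundant of the 7 transcripts in every library, followed by AGO1 in every library. AGO2 had 55.2 TPM with methylated let-7a, 54.1 with native let-7a, 27.1 with methylated miR-17 and 34.5 with native miR-17, against 58.3 TPM in the control. AGO1 had 24.6, 24.1, 17.3 and 22.9 TPM in the same 4 microRNA libraries and 28.2 TPM in the control. For both genes all 4 microRNA libraries lay below the control, and both miR-17 libraries lay below both let-7a libraries.

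AGO4 had 9.5 TPM with methylated let-7a, 8.8 with native let-7a, 9.9 with methylated miR-17 and 11.5 with native miR-17, against 12.9 TPM in the control. AGO3, the least abundant Argonaute, had 7.5, 7.3, 5.2 and 6.1 TPM in the same order and 7.9 TPM in the control. AGO3 was lowest with miR-17, whereas AGO4 was lowest with let-7a, and in neither gene did the let-7a and miR-17 values overlap.

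TNRC6A had 22.0 TPM with methylated let-7a, 22.8 with native let-7a, 14.9 with methylated miR-17 and 17.5 with native miR-17, against 18.2 TPM in the control. TNRC6B had 20.8, 19.8, 14.7 and 18.3 TPM in that order and 21.2 TPM in the control. TNRC6C had 9.6, 9.8, 7.4 and 10.6 TPM, against 8.9 TPM in the control. TNRC6A was above the control with let-7a and below it with miR-17, TNRC6B was below the control in all 4, and TNRC6C was below it with methylated miR-17 alone.

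Across the libraries the ranges of TNRC6A (14.9 to 22.8 TPM) and TNRC6B (14.7 to 21.2 TPM) overlapped, and their order differed between libraries. TNRC6C, from 7.4 to 10.6 TPM, overlapped AGO4 and AGO3, while AGO4 was above AGO3 in every library. The 4 members of the PIWI branch, the germline relatives of these Argonautes, were listed at 0.9 TPM or less. TNRC6C-AS1, named as antisense to TNRC6C, had 10.8, 11.8, 17 and 23.4 TPM in the microRNA libraries and 12.4 TPM in the control, and whether the authors' counting used strand is not given in the sources used here. Reads of the pair therefore may not be separate, and the TNRC6C values are uncertain.

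**Figure D1:**
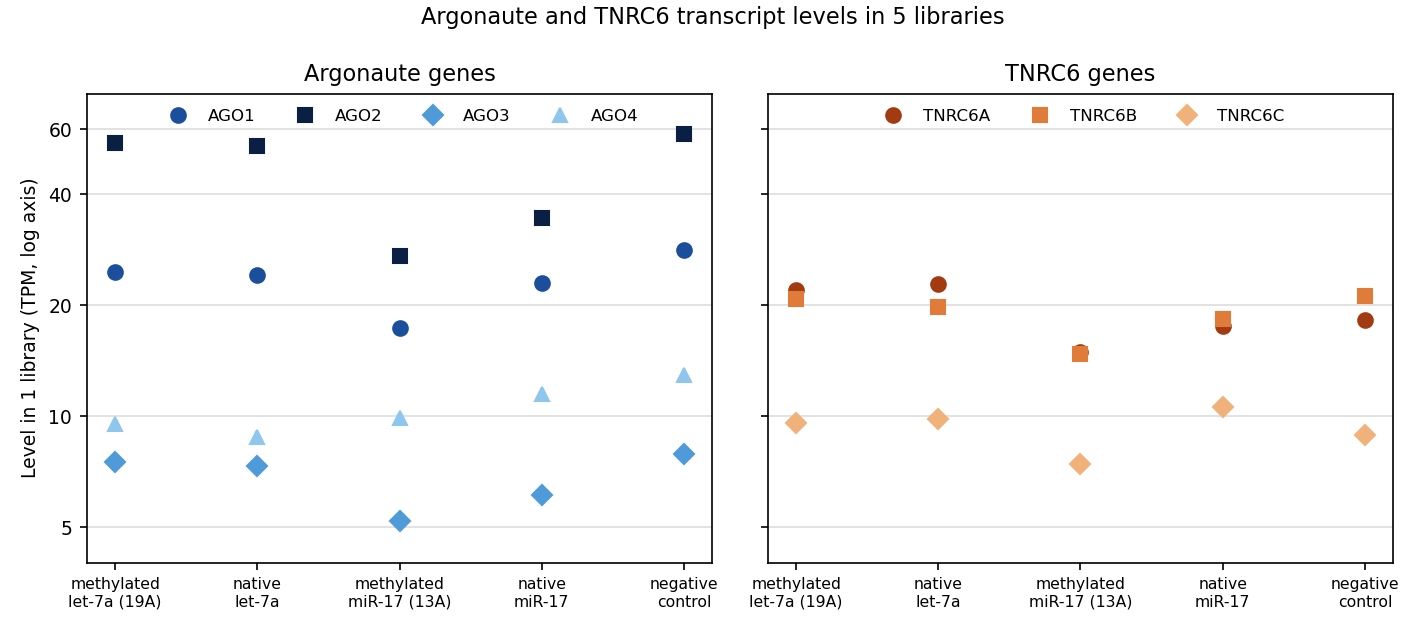
Levels of the 4 Argonaute genes (left) and the 3 TNRC6 genes (right) in TPM on a log axis, 1 point per library with no error bar, since each group holds 1 library. AGO2 stands at 27.1 and 34.5 TPM with methylated and native miR-17, below its 54.1 to 58.3 TPM in the other libraries.

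The question behind the control comparisons is what each microRNA did to mRNA levels in cells without Dicer. Differences are given on the log2(TPM + 1) scale, and 14180 genes reached the filter of a mean of 1 TPM, all 7 among them. A gene was counted as past the threshold when it differed by at least 0.32 on that scale, a rule of size and not a test. A 2-fold rule, a difference of 1, was also used. Rounding of the deposited values to 1 decimal moves these differences by at most 0.022.

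With methylated let-7a against the control, the 4 Argonaute transcripts were all below the control and TNRC6A and TNRC6C were above it. AGO4 was the lowest at -0.40, with AGO1 at -0.19, AGO2 at -0.077 and AGO3 at -0.066. TNRC6A lay at 0.26, TNRC6C at 0.099 and TNRC6B at -0.026, which turned to 0.0061 under median-of-ratios scaling, which sets the libraries to a common median ratio across genes. At the 0.32 threshold 1 of the 7, AGO4, was lower, where 10.2% of all genes were, and 0 were higher, where 8.96% were. AGO4 missed the threshold with a pseudocount of 5 (-0.30) and against the mean of both miR-17 libraries (-0.15). The median of the 7 was -0.066, beside -0.038 over all genes.

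With native let-7a against the control, AGO4 was again the lowest, at -0.50 (8.8 against 12.9 TPM), and 5.37% of all genes had a lower difference. AGO1 lay at -0.22, AGO2 at -0.11, AGO3 at -0.10 and TNRC6B at -0.094. TNRC6A lay at 0.31, above 86.6% of all genes, and TNRC6C at 0.13. The threshold counted 1 of the 7 as lower, beside 11.7% of all genes, and 0 as higher, beside 12.8%. With a pseudocount of 0.1, TNRC6A also passed, as higher (0.32), and against the mean of both miR-17 libraries AGO4 missed the threshold (-0.25). The median was -0.10 for the 7 genes and 0.0 for all genes.

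Genes with a let-7a 8mer in the 3′ UTR had medians of -0.082 with methylated and -0.085 with native let-7a, and genes with 7mer matches alone -0.072 and -0.073. AGO1 and AGO4, with 7mer matches, lay below those medians in both libraries. AGO2 and AGO3, with an 8mer each, lay near them. Genes with 2 or more let-7a matches, as all 4 Argonaute genes have, had medians of -0.102 with methylated and -0.119 with native let-7a. AGO1 and AGO4 lay below these in both libraries, and AGO2 and AGO3 slightly above.

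The 2 forms of let-7a were compared for what the methyl group changes, methylated minus native, and the 7 transcripts differed by at most 0.10. AGO4 was highest at 0.10 (9.5 against 8.8 TPM), TNRC6B lay at 0.068, AGO3 at 0.034, AGO2 at 0.029 and AGO1 at 0.028. TNRC6A was lowest at -0.049, and TNRC6C lay at -0.027, which turned above 0 under both other scalings (0.0082 and 0.0047). At the 0.32 threshold 0 of the 7 were higher, where 5.15% of all genes were, and 0 lower, where 7.02% were. The median was 0.029, beside -0.034 over all genes and 0.015 over the 938 genes whose 3′ UTR reached 5000 nt. With 1 library each, differences of this size have no spread to be read against.

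With methylated miR-17 against the control, all 7 transcripts were below the control, led by the cleaving Argonaute. AGO2 had 27.1 against 58.3 TPM, a difference of -1.08 and a 2.15-fold lower TPM, and 1.83% of all genes had a lower difference. AGO1 lay at -0.67 (17.3 against 28.2 TPM), AGO3 at -0.52, TNRC6B at -0.50 (14.7 against 21.2 TPM), AGO4 at -0.35, TNRC6A at -0.27 and TNRC6C at -0.24. Of the 7, 5 were lower by the 0.32 threshold (AGO1, AGO2, AGO3, AGO4 and TNRC6B), where 25.2% of all genes were. None was higher, where 14.9% were. AGO2 alone was at least 2-fold lower, where 2.38% were. AGO2 fell just short of 2-fold with a pseudocount of 5 (-0.98) and against the mean of both let-7a libraries (-0.99). AGO4 missed the 0.32 threshold with a pseudocount of 5 (-0.26) and under median-of-ratios scaling (-0.28), and lay at 0.10 against the mean of both let-7a libraries. Among genes whose 3′ UTR reached 5000 nt, a group that AGO1, AGO2, AGO3 and TNRC6B belong to, 39.1% were lower by the threshold. The median was -0.50 for the 7 genes, -0.065 for all genes and -0.23 for those with long 3′ UTRs.

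With native miR-17 against the control, AGO2 was again lowest, at -0.74 (34.5 against 58.3 TPM, 1.69-fold lower TPM), and 3.51% of all genes had a lower difference. AGO3 lay at -0.33, AGO1 at -0.29, TNRC6B at -0.20, AGO4 at -0.15 and TNRC6A at -0.054, while TNRC6C lay at 0.23. AGO2 and AGO3 were lower by the 0.32 threshold, 2 of 7, beside 15.5% of all genes, and 0 were higher, beside 17.9%. AGO3 missed the threshold with a pseudocount of 5 (-0.22) and against the mean of both let-7a libraries (-0.24). The median was -0.20, beside 0.018 over all genes and -0.062 over those with long 3′ UTRs.

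**Figure D2:**
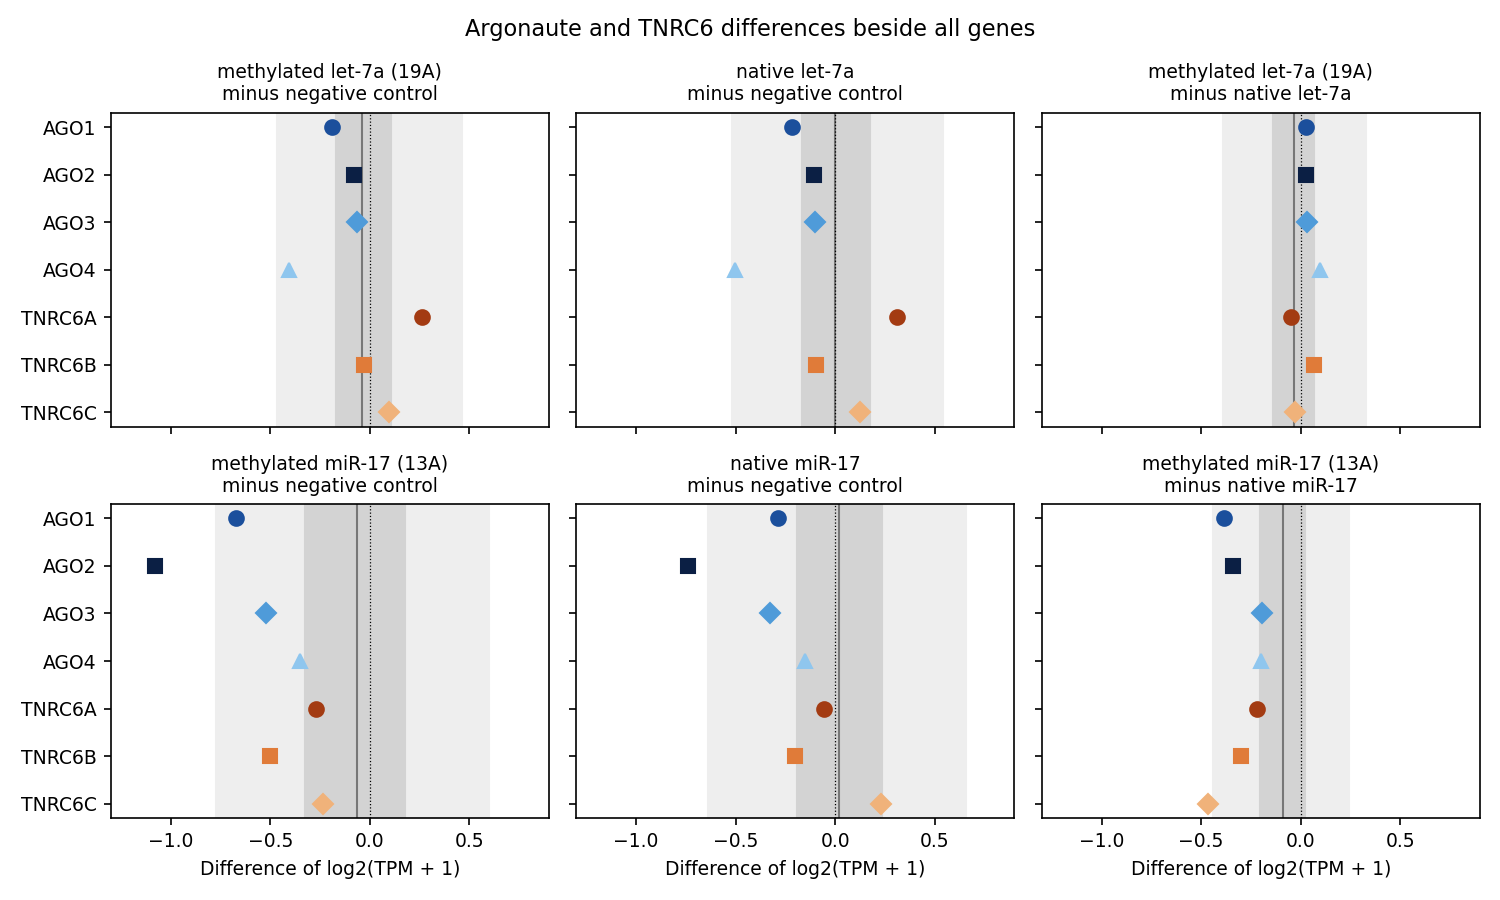
Difference of log2(TPM + 1) for each of the 7 genes in the 6 comparisons, 1 point per gene. The dark band spans the quartiles and the light band leaves out the lowest and the highest 5% of all 14180 genes, with a line at their median. AGO2 lies outside the light band in both comparisons of miR-17 with the control, at -1.08 and -0.74.

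For the 2 forms of miR-17, methylated minus native, all 7 transcripts were lower with the methylated form. TNRC6C was lowest at -0.47 (7.4 against 10.6 TPM), then AGO1 at -0.39 (17.3 against 22.9 TPM), AGO2 at -0.34 (27.1 against 34.5 TPM) and TNRC6B at -0.30. TNRC6A lay at -0.22, AGO4 at -0.20 and AGO3 at -0.20. TNRC6C-AS1 moved in the same direction, at -0.44. At the 0.32 threshold 3 of the 7 (AGO1, AGO2 and TNRC6C) were lower, where 11.0% of all genes were, and 0 were higher, where 3.6% were. Of the 3, TNRC6C alone (-0.38) remained under median-of-ratios scaling, with AGO1 at -0.29 and AGO2 at -0.24.

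The whole library pair was shifted in that direction, with 69.0% of all genes lower and a median of -0.089, and 88.3% of the genes whose 3′ UTR reached 5000 nt were lower, with a median of -0.17. The median of the 7 was -0.30. Under median-of-ratios scaling the median of the 7 was -0.21 and that of all genes -0.00055. Beyond this rescaling, the part of the shift in the values of the 7 genes was not tested.

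Ratios within a library do not depend on its scaling. AGO2 made up 57.0% and 57.4% of the summed Argonaute TPM with methylated and native let-7a and 45.5% and 46.0% with methylated and native miR-17, against 54.3% in the control. AGO4 made up 9.81% and 9.33% with methylated and native let-7a and 16.6% and 15.3% with methylated and native miR-17, against 12% in the control. The TPM of AGO2 over that of AGO1 was 2.24 in both let-7a libraries and 1.57 and 1.51 with methylated and native miR-17, against 2.07 in the control. The Argonaute pool therefore held less AGO2 relative to the other members with miR-17 and less AGO4 with let-7a, in both forms of each microRNA.

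The summed Argonaute TPM was 96.8 and 94.3 with methylated and native let-7a and 59.5 and 75 with methylated and native miR-17, against 107.3 in the control. The summed TNRC6 TPM was 52.4 in both let-7a libraries and 37.0 and 46.4 with methylated and native miR-17, against 48.3 in the control. The ratio of the sums was 1.85 and 1.80 with methylated and native let-7a and 1.61 and 1.62 with methylated and native miR-17, against 2.22 in the control. All 4 microRNA libraries thus had fewer Argonaute transcripts per TNRC6 transcript than the control, which is 1 library shared by the 4 comparisons.

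Within the TNRC6 pool, TNRC6A over TNRC6B was 1.06 and 1.15 with methylated and native let-7a and 1.01 and 0.956 with methylated and native miR-17, against 0.858 in the control. TNRC6A was above TNRC6B in both let-7a libraries and with methylated miR-17, and below it with native miR-17 and in the control.

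**Figure D3:**
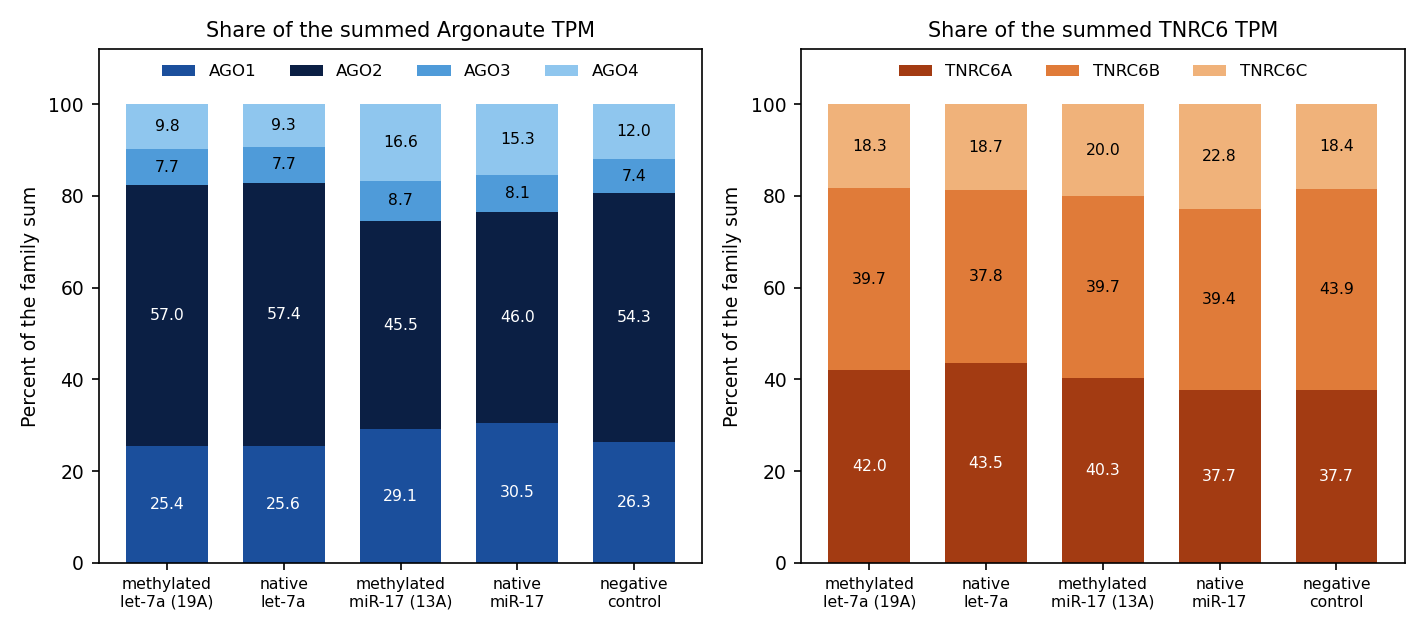
Share of each gene in the summed TPM of the Argonaute genes (left) and of the TNRC6 genes (right), in percent, with 1 bar per library. The AGO2 share is 45.5% and 46.0% in the miR-17 libraries and 54.3% to 57.4% in the others.

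The miR-17 matches were read beside the differences across genes. Genes with a miR-17 8mer had medians of -0.43 with methylated and -0.28 with native miR-17 against the control. Genes with 7mer matches alone had -0.18 and -0.052, and genes with none -0.016 and 0.055. These groups also differ in length, with median 3′ UTRs of 3242.5, 2692 and 922 nt in that order. Genes whose 3′ UTR reached 5000 nt lay at -0.23 and -0.062. The part of length in these medians was not tested. Genes with 2 or more miR-17 matches, with a median 3′ UTR of 4161.5 nt, had medians of -0.25 with methylated and -0.11 with native miR-17. AGO1, AGO2, AGO3 and TNRC6B, which belong to that group, lay below these in both libraries, and TNRC6C lay above. AGO2, with 4 matches of the 7mer kind, lay below the 8mer median in both libraries. TNRC6B, the only one of the 7 with an 8mer, lay at -0.50 and -0.20.

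AGO4, with a single match of the 7mer kind, lay at -0.35 with methylated miR-17 and -0.15 with native miR-17, below the 7mer medians in both libraries. AGO3, with 9 matches, the most of the 7, lay at -0.52 and -0.33. TNRC6A, with 1 match, lay at -0.27 and -0.054, and TNRC6C, with 2 matches, at -0.24 and 0.23. The order of the 7 by number of matches was thus not their order by difference.

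**Figure D4:**
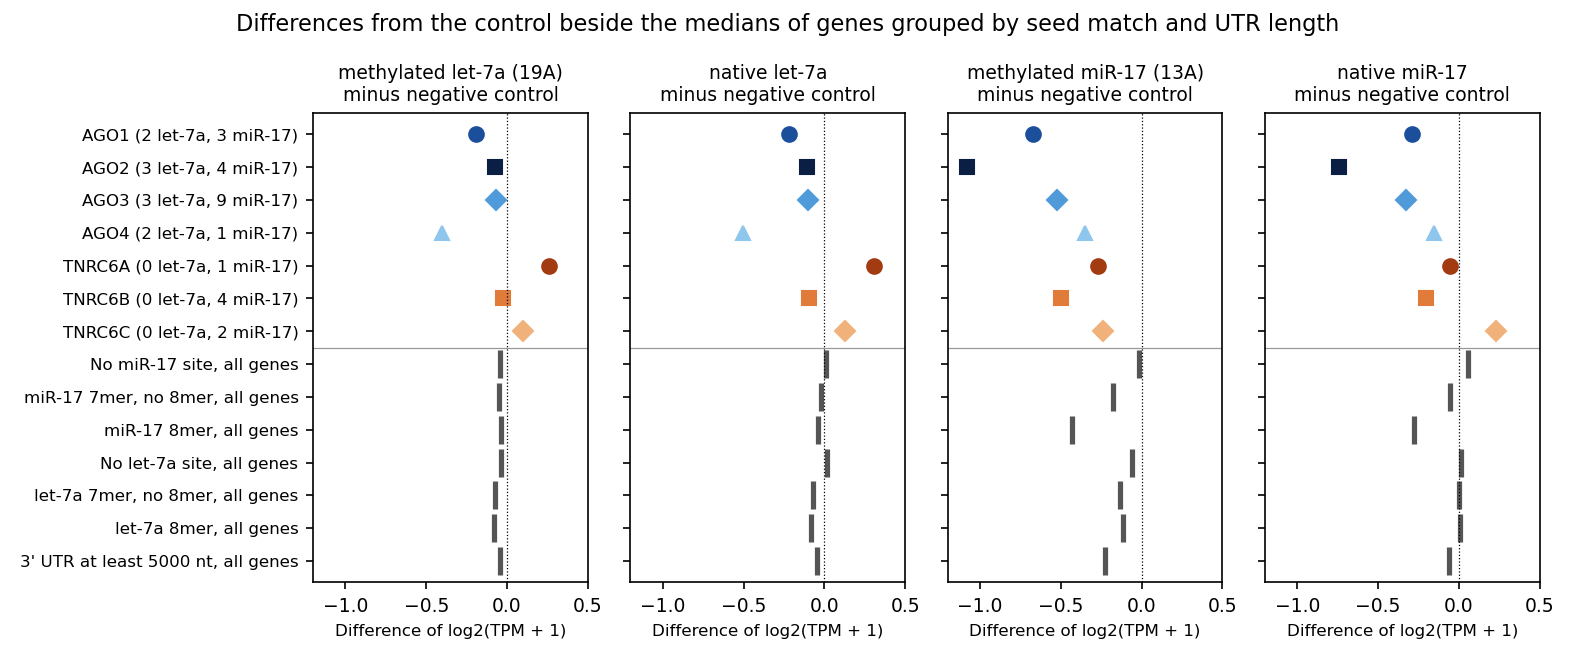
Difference of log2(TPM + 1) from the control in each microRNA library for the 7 genes (upper rows, with their numbers of let-7a and miR-17 matches in the longest 3′ UTR) and the medians of all genes grouped by matches or 3′ UTR length (lower rows, bars). AGO2 lies further from 0 than the miR-17 8mer median in both miR-17 libraries, and AGO4 further than the let-7a 8mer median in both let-7a libraries.

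The genes most like AGO2 over the 5 libraries, by the root mean square distance of centred log2(TPM + 1) among 10779 genes of at least 5 TPM, were ZFYVE9, COL12A1 and NTSR1, at distances of 0.030, 0.037 and 0.039. ZFYVE9 had 28.9, 29.1, 14 and 18.7 TPM in the microRNA libraries, against 30 TPM in the control. The nearest to AGO1 were MAN2A2, KMT2B_1 and AREL1, at 0.022, 0.023 and 0.024. The median distance of all genes was 0.43 from AGO2 and 0.23 from AGO1.

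Of the proteins that load Argonaute, all 17 listed genes passed the filter. Lower by the 0.32 threshold were 0 with methylated let-7a, 2 with native let-7a, 1 with methylated miR-17 and 1 with native miR-17, where 10.2%, 11.7%, 25.2% and 15.5% of all genes were. The gene lower with miR-17 was HSPA8, the constitutive HSP70 chaperone. HSPA8 had 660.9 and 601.9 TPM with methylated and native miR-17, against 1109.8 TPM in the control, and 1 miR-17 match, an 8mer. FKBP4, an HSP90 co-chaperone, was higher with methylated and native let-7a, at 187.8 and 173.1 TPM against 126.2 TPM, and had 2 let-7a matches.

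Of the 20 expressed genes, of 21 listed, that modify Argonaute or control its turnover, 7 were lower by the threshold with methylated and 5 with native miR-17, and 1 with methylated and 4 with native let-7a. The shares of all genes were 25.2%, 15.5%, 10.2% and 11.7% in that order. With methylated miR-17 4 were at least 2-fold lower, where 2.38% of all genes were. P4HA1, a prolyl hydroxylase subunit whose complex is known to act on AGO2 and which is also a hypoxia gene, had 118.2, 75.2, 56.4 and 55.6 TPM with methylated let-7a, native let-7a, methylated miR-17 and native miR-17, against 138.2 TPM in the control, and no match to either seed. ANKRD52, a subunit of the phosphatase that removes phosphate from AGO2, had 30.1 and 38.8 TPM with methylated and native miR-17, against 69.8 TPM in the control, and 3 miR-17 matches, 2 of them 8mers. EGFR, a receptor kinase known to phosphorylate AGO2, had 36.1, 35.3, 25.2 and 33 TPM with methylated let-7a, native let-7a, methylated miR-17 and native miR-17, and 51.7 TPM in the control, so that all 4 were lower by the threshold. PTPN1, a phosphatase reported to act on AGO2, was higher with native miR-17, at 114.7 against 85.6 TPM.

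Of the 25 partners and P-body proteins, 18 were below the control with methylated miR-17, where 56.3% of all genes were, and 4 were lower by the threshold, where 25.2% were. Higher by the threshold were 2 with methylated miR-17, where 14.9% of all genes were. With native miR-17, 4 were higher, where 17.9% were, and 1 lower, where 15.5% were. MOV10, an RNA helicase of the silencing complex named here after its values were seen, had 53.2 and 55.2 TPM with methylated and native miR-17, against 33.8 TPM in the control. PATL1, a decapping factor, had 52.2, 47.1, 45.9 and 49.2 TPM in the microRNA libraries, against 64.1 TPM in the control, while LSM14A, a P-body protein, had 126.8, 130.1, 115.1 and 125.7 TPM, against 95.6 TPM. As deposited, the list's median with methylated miR-17 was -0.16, and in the other 3 comparisons with the control it lay within 0.1 of 0. Under median-of-ratios scaling the medians were -0.079 with methylated and -0.081 with native miR-17, so methylated miR-17 then no longer stood apart. With methylated let-7a the count of 15 lower turned to 12 under that scaling.

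The list of deadenylation genes, not all of them recruited by TNRC6, includes TOB1, TOB2, BTG1 and BTG2. Below the control were 17 of 19 with methylated let-7a, 16 with native let-7a, 16 with methylated miR-17 and 15 with native miR-17. The medians were -0.10, -0.10, -0.28 and -0.19 in that order. Of all genes 56.1%, 47.9%, 56.3% and 46.5% were below the control in these comparisons. All of these comparisons share the same control library, so the counts are not separate observations. Other reference libraries were not tried for this list or for the other lists of partners. Under median-of-ratios scaling the counts were 16, 16, 14 and 15, and the medians -0.066, -0.108, -0.201 and -0.205. The medians of both miR-17 forms then lay close together. Lower by the threshold were 0 with methylated let-7a, 1 with native let-7a, 8 with methylated miR-17 and 5 with native miR-17. The shares of all genes were 10.2%, 11.7%, 25.2% and 15.5% in that order. With median-of-ratios scaling 6 were lower by the threshold with methylated miR-17 and 5 with native miR-17. PABPC4, a poly(A)-binding protein, had 102.4, 97.3, 73.8 and 76.3 TPM in the microRNA libraries, against 126.0 TPM in the control. PAN2, the catalytic subunit of its deadenylase complex, was the highest of the list, at 10.1, 12.3, 12 and 13.1 TPM, against 8.0 TPM.

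**Figure D5:**
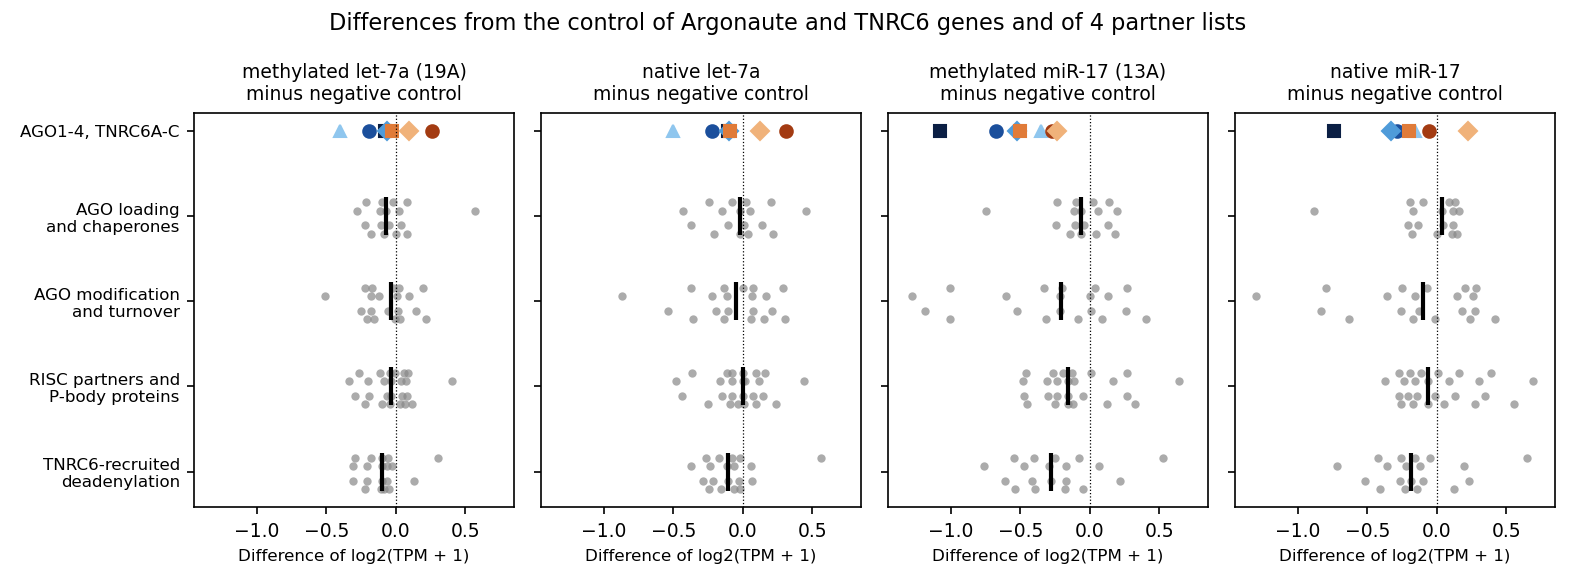
Difference of log2(TPM + 1) from the control for the 7 genes (top row) and for each gene of 4 lists of Argonaute and TNRC6 partners (grey points, with a bar at the list's median) in the 4 microRNA libraries. As deposited, the deadenylation list has medians from -0.28 to -0.10, and AGO2 lies at -1.08 and -0.74 in the miR-17 libraries. Under median-of-ratios scaling the list's median with methylated miR-17 is -0.20.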

How the data were processed

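The authors deposited gene-level TPM values, rounded to 1 decimal, for 5 libraries in 1 table. The build named is hg19, per the submitters' processing notes. For the aligner, the quantifier and the gene models, nothing is given in the sources used here. Each TPM column sums to a fixed total, so depth is unknown and no counting interval is given.

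Each difference is of log2(TPM + 1) between a library and its reference, and low genes (mean under 1 TPM) were left out. Each group holds 1 library, so no test was run. All 7 genes are named in every comparison. Partner genes were named by their extreme mean difference from the control or a 2-fold difference. The members, lists and rules were chosen with earlier results of these data known. GENCODE 29 (GRCh38) served for 3′ UTRs of at least 50 nt and for the coordinates of printed windows, and was joined by Ensembl identifier, 84.8% of genes that passed the filter having such a 3′ UTR. Alternatives were other pseudocounts, filters, scalings and reference libraries. The counting of genes past a fold was tested on simulated data. Python 3.11.15 with pandas 2.3.3 was used. Some items of the lists and some sequence windows are not reported here.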

Additional observations from a re-analysis of the deposited data

Results flagged for a closer look

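TNRC6A lay above the control in both let-7a libraries and below it in both miR-17 libraries, with 22.0 and 22.8 TPM with methylated and native let-7a, 14.9 and 17.5 TPM with methylated and native miR-17, and 18.2 TPM in the control. The mean difference from the control was 0.45 (log2) higher with let-7a than with miR-17, a value from which the control cancels. On this measure AGO2 lay at 0.82, AGO3 at 0.34, TNRC6B at 0.29, AGO1 at 0.28, TNRC6C at 0.12 and AGO4 at -0.20. A higher level with let-7a was therefore not particular to TNRC6A. With 1 library a group none of these values was tested. The native miR-17 value lies 0.054 below the control, and all 4 differences share that control library.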

How the results depend on the processing

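No paired analysis was possible because each group holds 1 library. A value was taken as unchanged when it moved by under 0.1 (log2) with the same sign, and a count when it stayed within 1.5 times. That tolerance exceeds the size of the medians of methylated let-7a against the control (-0.066) and of methylated minus native let-7a (0.029). The latter became 0.067 under median-of-ratios scaling and was taken as unchanged, so the rule says little about such small medians. Of the 28 medians of the 7 genes recomputed under the alternatives, 25 were unchanged, as were 22 of 28 counts of genes past the 0.32 threshold and 168 of 196 single-gene differences. Measured against the mean of both miR-17 libraries and not the control, the median of the 7 turned to 0.32 with methylated and 0.26 with native let-7a, and 4 and 3 genes were past the 0.32 threshold. With the let-7a libraries as reference, AGO4 turned to 0.10 with methylated and 0.30 with native miR-17. With a pseudocount of 5, the methylated miR-17 median was -0.34, and the counts became 0 with methylated let-7a and 1 with native miR-17. With a pseudocount of 0.1 the native let-7a count was 2. Under median-of-ratios scaling, 1 gene passed the threshold between methylated and native miR-17. For each gene, a value against the other microRNA is its difference from the control minus the mean of the other microRNA's differences. The control cancels from it, so those shifts restate the differences given above. The cause of the remaining shifts was not tested. Counts of all genes at least 2-fold apart moved by over 1.5 times under 46 of 48 alternatives. No replicate could be left out, and how far depth limits the lower values (AGO3, TNRC6C) is unknown.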
